A study of Mus musculus with 8 samples.

Results

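The Akr1c cluster is a run of aldo-keto reductase genes on mouse chromosome 13. Its 7 genes studied here are Akr1c6, Akr1c12, Akr1c13, Akr1c14, Akr1c18, Akr1c19 and Akr1c20, out of 55401 gene identifiers in the deposited tables and 17669 genes that passed the filter on low counts; all 7 passed it. They were chosen by gene name, as the Akr1c family, after Akr1c18 was seen to be far higher in the livers of Colo201 hosts than in those of HCT116 hosts. The difference between lines in these genes is therefore given as a description, and no test of it is read as a result.

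RNA of whole liver was measured in 8 libraries from NOD scid gamma (NSG) mice, an immunodeficient strain that accepts human cells. Every host carried a subcutaneous xenograft of a human colorectal cancer line: 4 libraries (2L, 2R, 4L and 4R) came from hosts of Colo201, named in the series as high in the hormone FGF19, and 4 (1L, 1R, 3L and 3R) from hosts of HCT116, named as low in it. Libraries 2L, 2R, 1L and 1R are labelled male and 4L, 4R, 3L and 3R female; the sources used here state neither the animals' age nor the time since implantation. The samples include no tumour-free host and no line with its FGF19 altered, so FGF19 and every other difference between the 2 lines cannot be told apart. The labels do not say whether libraries L and R of a number came from separate animals, so p-values measure only the spread between these libraries.

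Each library held 61347603 to 65457482 estimated counts, with 19370 to 20272 genes above 0. The sex labels went against the sex-linked genes in all 8 libraries: Xist, the RNA of the inactive X chromosome, had 253 to 366 CPM (counts scaled to library size) where the label was male, against 0.276 to 0.805 CPM where it was female, and 4 Y-linked genes had at most 0.0742 CPM in the former and 9.06 to 63.5 CPM in the latter. The words labelled male and labelled female are used throughout for that reason. Cyp7a1, the rate-limiting enzyme of bile acid synthesis, which FGF19 is known to repress, lay at 0.297 to 3.61 CPM in Colo201 hosts and at 181 to 223 CPM in HCT116 hosts.

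Enzymes of the AKR1C family use NADPH or NADH to reduce ketones and aldehydes or to oxidise the matching alcohols, and many act on steroid hormones at the hydroxysteroid positions that decide whether a hormone binds its receptor. In mice, Akr1c18 encodes 20-alpha-hydroxysteroid dehydrogenase, which turns progesterone into a metabolite that no longer activates the progesterone receptor and is best known from the regressing corpus luteum of the ovary. Akr1c6 encodes a liver 17-beta-hydroxysteroid dehydrogenase that acts on sex steroids, and Akr1c14 a 3-alpha-hydroxysteroid dehydrogenase that reduces dihydro forms of steroids. The products of Akr1c12, Akr1c13, Akr1c19 and Akr1c20 are named here as family members only.

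In GRCm38 coordinates the 7 genes covered 474 kb of chromosome 13. From the lowest coordinate, they were Akr1c14 (ENSMUSG00000033715, plus strand, chr13:4049011-4090688), Akr1c18 (ENSMUSG00000021214, minus strand, chr13:4132615-4150654), Akr1c13 (ENSMUSG00000021213, plus strand, chr13:4191150-4205596) and Akr1c19 (ENSMUSG00000071551, plus strand, chr13:4228700-4252843). Then followed Akr1c12 (ENSMUSG00000021211, minus strand, chr13:4268176-4279433), Akr1c6 (ENSMUSG00000021210, plus strand, chr13:4434306-4457877) and Akr1c20 (ENSMUSG00000054757, minus strand, chr13:4486849-4523345).

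The sequences before the gene starts are shown for the members the results turn on: Akr1c18 and Akr1c19, which differed most between lines and in opposite directions, and the near-identical pair Akr1c12 and Akr1c13. Each window runs 5′ to 3′ from 250 bases before to 50 bases after the start, from RefSeq on GRCm38.p6, where 6 of the 7 members matched and Akr1c20 did not. Capitals mark matches to any of 4 motifs searched on both strands: TTCNNNGAA, the core bound by STAT5; TGACNNNGC, the core of the antioxidant response element; AGGTCA, a hexamer bound by nuclear receptors; and AAAGGTCA, the same hexamer with an AA extension, which contains AGGTCA. The windows are chr13:4150597-4150896 (minus strand) for Akr1c18, chr13:4233490-4233789 (plus strand) for Akr1c19, chr13:4279350-4279649 (minus strand) for Akr1c12 and chr13:4190937-4191236 (plus strand) for Akr1c13. The RefSeq starts can differ from the ends of the gene spans above. The windows of Akr1c19 and Akr1c14 lie inside those spans, not at their outer edge.
Akr1c18: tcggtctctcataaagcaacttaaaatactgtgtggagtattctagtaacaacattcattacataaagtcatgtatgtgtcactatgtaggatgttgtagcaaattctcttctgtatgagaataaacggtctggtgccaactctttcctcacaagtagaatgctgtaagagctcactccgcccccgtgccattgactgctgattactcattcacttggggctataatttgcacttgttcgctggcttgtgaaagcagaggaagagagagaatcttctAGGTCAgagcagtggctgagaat
Akr1c19: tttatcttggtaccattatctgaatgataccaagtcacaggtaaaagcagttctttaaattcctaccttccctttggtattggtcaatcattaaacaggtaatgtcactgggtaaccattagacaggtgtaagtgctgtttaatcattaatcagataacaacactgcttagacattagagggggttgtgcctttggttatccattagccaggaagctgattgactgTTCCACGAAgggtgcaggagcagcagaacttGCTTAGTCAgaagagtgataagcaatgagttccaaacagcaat
Akr1c12: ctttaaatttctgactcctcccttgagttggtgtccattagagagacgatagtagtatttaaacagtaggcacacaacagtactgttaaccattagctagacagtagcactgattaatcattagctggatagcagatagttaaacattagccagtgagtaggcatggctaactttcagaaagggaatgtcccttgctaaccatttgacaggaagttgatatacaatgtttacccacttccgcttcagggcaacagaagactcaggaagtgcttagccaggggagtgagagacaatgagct
Akr1c13: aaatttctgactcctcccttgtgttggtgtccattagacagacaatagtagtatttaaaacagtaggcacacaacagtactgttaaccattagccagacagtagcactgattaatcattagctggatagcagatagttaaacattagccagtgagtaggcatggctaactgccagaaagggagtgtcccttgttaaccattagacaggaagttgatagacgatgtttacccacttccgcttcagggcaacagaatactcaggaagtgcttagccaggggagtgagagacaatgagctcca

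The Akr1c18 window held AGGTCA 28 to 33 bases after the start, a hexamer found in 16.3% of all 32851 windows of this kind. The Akr1c19 window held TTCCACGAA, a match to TTCNNNGAA, from position -24 to -16, and GCTTAGTCA, a match to TGACNNNGC read on the other strand, from position 8 to 16. Of all windows, 8.3% held TTCNNNGAA, 12.4% held TGACNNNGC and 1.51% held AAAGGTCA. The 4 motifs had no match in the windows of Akr1c6, Akr1c12, Akr1c13 and Akr1c14, which says only that these letters are not in these windows. The windows of Akr1c12 and Akr1c13 were 95.9% identical, with 12 mismatches over 296 aligned bases, whereas the other pairs were 49.0 to 66.0% identical.

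The coding sequences of all 7 members are 972 bases long. Akr1c12 and Akr1c13 differed at 37 of 972 bases (96.2% identity) and Akr1c6 and Akr1c20 at 75 (92.3%), while all other pairs were 72.5 to 77.8% identical. Akr1c18 shared 73.9 to 76.7% of its bases with the other members. Of the 50-base windows of the Akr1c12 and Akr1c13 transcripts, 28.6% occurred in the other of the pair, so the counts of these 2 genes are uncertain where reads could be assigned to either. For Akr1c18 the share was 0.608% (7 of 1151 windows, all in common with Akr1cl, a gene at 0 in all 8 libraries), for Akr1c6 2.08% and for Akr1c20 2.17%. Akr1c14 and Akr1c19 shared none.

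By deposited FPKM (fragments scaled by gene length and library size), Akr1c6 was the most abundant member in all 8 libraries and Akr1c14 the next. The length used for each gene is not given in the sources. Mean FPKM over the 8 libraries was 434 for Akr1c6, 81.7 for Akr1c14, 62.4 for Akr1c12 and 58.8 for Akr1c13. It was 49.5 for Akr1c20, 14.1 for Akr1c19 and 8.12 for Akr1c18. By mean FPKM among the 55401 identifiers, Akr1c6 had rank 122 and Akr1c18 rank 3555. The ranges of Akr1c12, Akr1c13 and Akr1c20 overlapped, and these 3 genes exchanged places below Akr1c14 from library to library. By FPKM, Akr1c19 and Akr1c18 took the lowest levels everywhere, and Akr1c18 stood above Akr1c19 in the libraries Colo201 2L and 2R and below it in the other 6. That order depends on the length used. In CPM, Akr1c19 had 39.7 and 53.9 in Colo201 2L and 2R, against 35.2 and 30.6 for Akr1c18. Its mean of 90.9 CPM lay between those of Akr1c12 (86.2) and Akr1c13 (92.5). The transcripts of these genes compared above were 1200 to 1262 bases long.

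**Figure D1:**
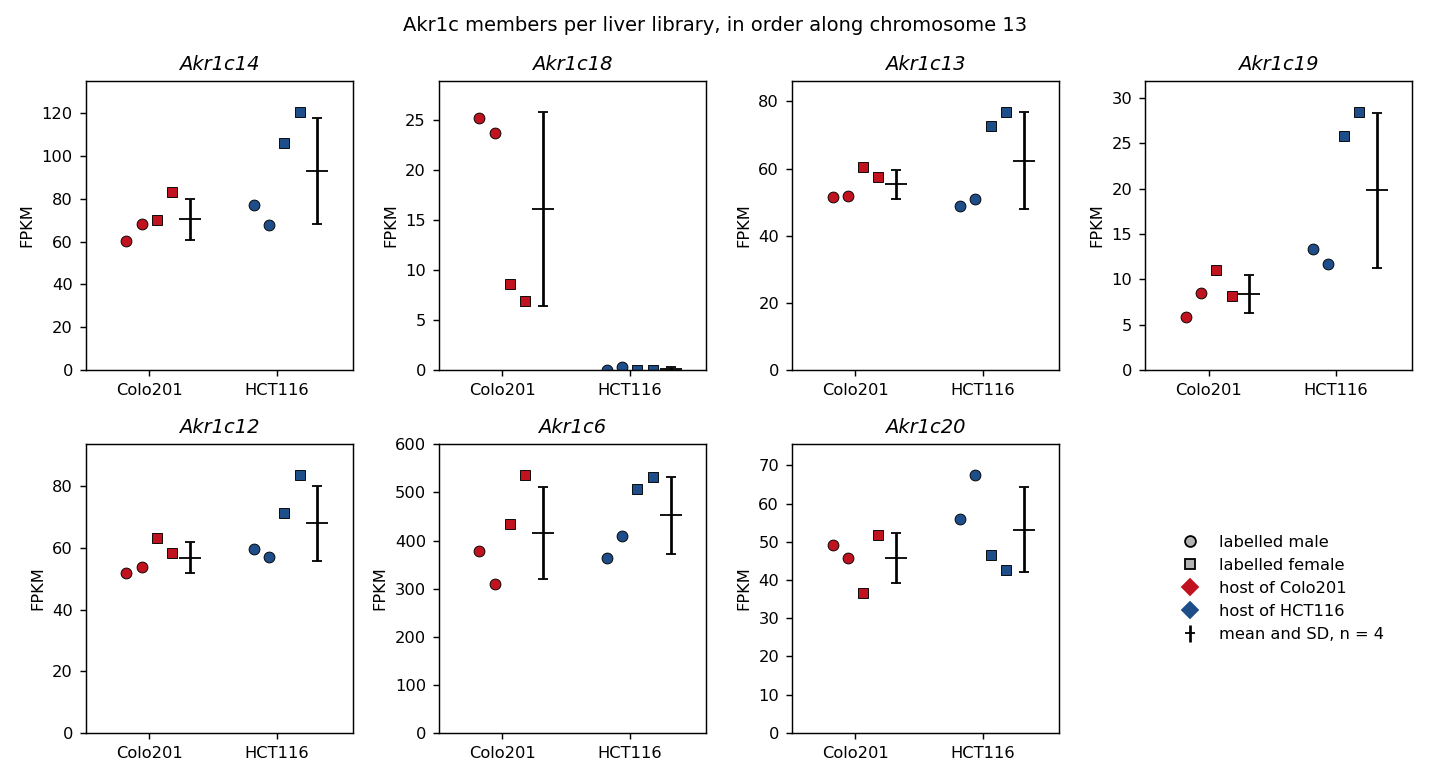
FPKM of each member in each of the 8 libraries, in order along chromosome 13, with the mean and SD of each line (n = 4); circles are libraries labelled male and squares libraries labelled female. Akr1c18 lies at 6.94 to 25.2 FPKM in Colo201 hosts and at 0 to 0.36 FPKM in HCT116 hosts, and Akr1c19 lies lower in Colo201 hosts, while the other 5 members overlap between lines.

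Akr1c18 RNA was present in every Colo201 host library and nearly absent from every HCT116 host library. The Colo201 libraries 2L, 2R, 4L and 4R had 35.2, 30.6, 11.7 and 9.25 CPM. The HCT116 libraries 1L, 1R, 3L and 3R had 0.0809, 0.479, 0 and 0.0501 CPM. The lowest Colo201 library was thus far above the highest HCT116 library. Within Colo201 hosts the libraries labelled male held more than those labelled female. In HCT116 hosts the values were too near 0 to compare the labels. The means were 21.7 ± 13.1 CPM against 0.153 ± 0.22 CPM (SD, n = 4 each), a ratio of 142.

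That ratio rests on few HCT116 reads. The 4 HCT116 libraries held 5, 31, 0 and 3 estimated counts of Akr1c18, 39 in all, against 5457 in the Colo201 libraries. One fragment appeared to be worth about 4 counts, so the 0 in HCT116 3L allows up to 0.182 CPM (3 fragments, counting error only). The log2 fold change from edgeR was 7.27 (SE 0.53), with 6.85 (SE 0.66) within the libraries labelled male and 8.66 (SE 0.85) within those labelled female. Without HCT116 1R, which held 31 of the 39 counts, it was 8.64, and on the log2(FPKM + 1) scale, which understates changes of low genes, it was 3.76.

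Akr1c19 differed in the opposite direction. The Colo201 libraries 2L, 2R, 4L and 4R had 39.7, 53.9, 72.7 and 53.3 CPM. The HCT116 libraries 1L, 1R, 3L and 3R had 85.1, 73.2, 160 and 189 CPM. All Colo201 libraries lay below all HCT116 libraries, by a small margin between Colo201 4L and HCT116 1R and a wide one between the libraries labelled female. The means were 54.9 ± 13.5 against 127 ± 56.5 CPM (SD, n = 4 each), and the log2 fold change was -1.12 (SE 0.19), with -0.76 (SE 0.21) within the libraries labelled male and -1.47 (SE 0.21) within those labelled female.

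The other 5 members overlapped between lines. Akr1c6 lay at 890, 672, 989 and 1204 CPM in Colo201 hosts and at 795, 886, 1087 and 1219 CPM in HCT116 hosts, so the ranges of the lines overlapped, with a log2 fold change of -0.09 (SE 0.11). Akr1c14 lay at 225, 235, 254 and 298 CPM against 269, 234, 363 and 439 CPM, with a log2 fold change of -0.33 (SE 0.12), and its highest values were the HCT116 libraries labelled female. Akr1c20 overlapped between lines, at 76.2 to 106 CPM against 89.3 to 134 CPM (log2 fold change -0.16, SE 0.13).

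The near-identical pair stayed close to each other in each library. Akr1c12 lay at 75.7, 72.3, 89.1 and 81.1 CPM in Colo201 hosts and at 81.0, 76.7, 95.1 and 119 CPM in HCT116 hosts, with a log2 fold change of -0.21 (SE 0.10). Akr1c13 lay at 85.4, 79.5, 97.0 and 90.8 CPM against 75.5, 78.0, 110 and 124 CPM, with a log2 fold change of -0.11 (SE 0.11). Over the 8 libraries the log2 CPM values of the pair had a Pearson r of 0.918, given as a description of libraries that share depth and, for these genes, possibly reads. The r of Akr1c18 with Akr1c19 was -0.88, and -0.752 after subtracting the mean of each line. The first value includes the line difference by which Akr1c18 was chosen. The second was not particular to this pair. After subtracting line means, the r of Akr1c18 was -0.775 with Akr1c14, -0.672 with Akr1c13, -0.627 with Akr1c12 and -0.604 with Akr1c6. With Akr1c20 it was 0.673.

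By the rule applied to all genes (edgeR, adjusted p under 0.05 over 17669 genes), 1 of the 7 members was called higher in Colo201 hosts (Akr1c18), where 2.48% of all genes were, and 1 was called lower (Akr1c19), where 2.3% of all genes were. The lines did not overlap for these same 2 members, and for 12.3% of all genes. The members were chosen on this contrast, so nothing is read from these counts. The call of Akr1c19 was lost without Colo201 2L, Colo201 4L, HCT116 1L or HCT116 3L. It was also lost without sex label as a covariate, at a threshold of 0.01 and when L and R were summed. The call of Akr1c18 was lost when L and R were summed. The median log2 fold change was -0.16 over the members and 0.00 over all genes tested.

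Summed over the 7 members, the cluster gave 1457, 1235, 1590 and 1842 CPM in Colo201 hosts and 1418, 1482, 1907 and 2179 CPM in HCT116 hosts. The lines overlapped, with means of 1531 ± 254 and 1747 ± 361 CPM (SD, n = 4 each) and a log2 ratio of -0.19. What differed was the make-up: of the summed FPKM, Akr1c18 made up 0.865 to 4.23% in Colo201 hosts and 0 to 0.0542% in HCT116 hosts. Akr1c19 made up 0.936 to 1.61% against 1.75 to 3.21%. The size of each share depends on the gene lengths behind the FPKM. The share of Akr1c6 was 55.2 to 66.9% against 58.7 to 61.6%, overlapping between lines.

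**Figure D2:**
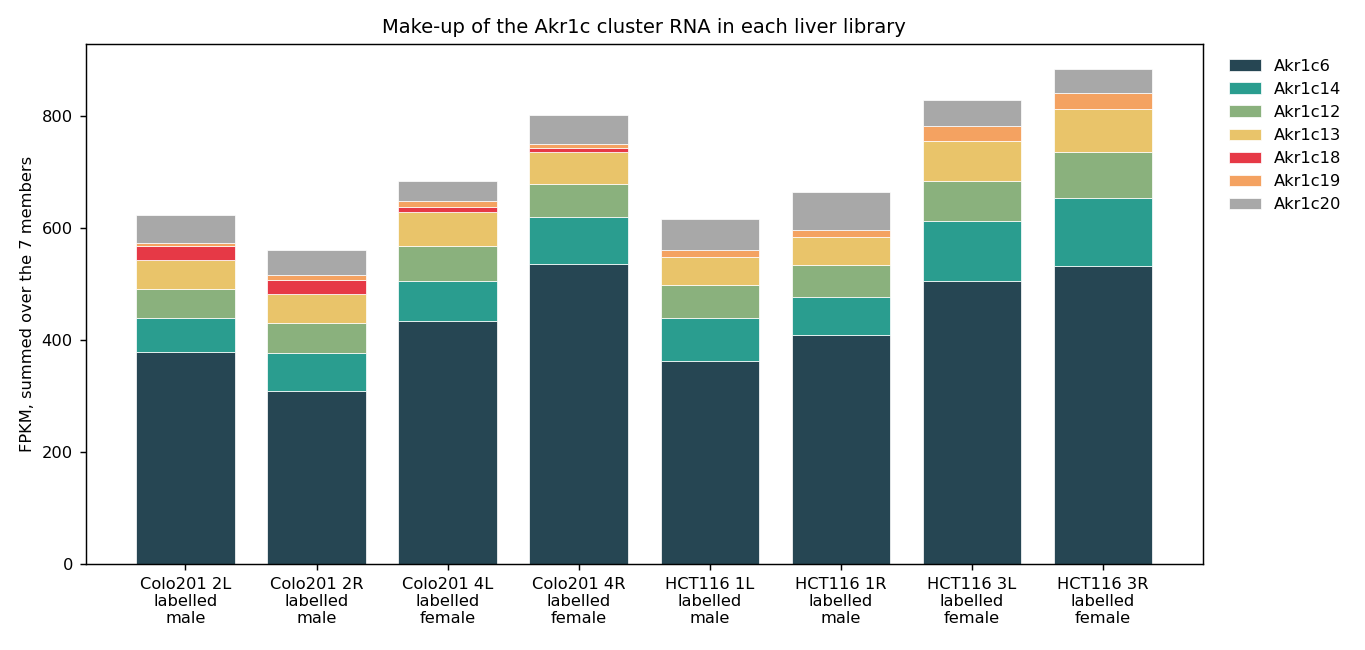
FPKM of the 7 members stacked in each library, from 561 in Colo201 2R to 885 in HCT116 3R. Akr1c6 is the largest band in every library; the Akr1c18 band is visible in the 4 Colo201 libraries, and widest in 2L and 2R, and is at or near 0 in the 4 HCT116 libraries.

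Within 500 kb on either side lay 39 genes, 32 of them not members, of which 15 were at 0 in all 8 libraries and 8 could be tested. Between lines, edgeR called 0 of these 8 at an adjusted p under 0.05, where 4.78% of all genes were called in either direction, and 1 of 8 had an unadjusted p under 0.05, as did 21.7% of all genes. DESeq2 and limma voom, which called 13.4% and 5.68% of all genes, also called 0. With 8 genes, 0 calls is near these shares and is not a result about the neighbours. The largest difference was that of Akr1e1, which reduces 1,5-anhydrofructose, with 7.60, 12.6, 7.81 and 5.96 CPM in Colo201 hosts against 5.79, 0.866, 1.70 and 4.94 CPM in HCT116 hosts. Its lines did not overlap, and edgeR gave a log2 fold change of 1.33 with an SE of 0.55 and an adjusted p of 0.205.

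The other tested neighbours had log2 fold changes of -0.17 for Gdi2, which recycles Rab GTPases, -0.17 for Fam208b, -0.09 for Asb13 and -0.19 for Net1. Among transcripts of unknown function, Gm48838 had 0.30, Gm47905 -0.89 and Gm48010 0.33. The adjusted p of these 7 genes ran from 0.237 to 0.836 (edgeR). Akr1c21, the family member next to Akr1c20 and a 17-alpha-hydroxysteroid dehydrogenase known from kidney, lay at 0 to 0.228 CPM and was not tested.

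**Figure D3:**
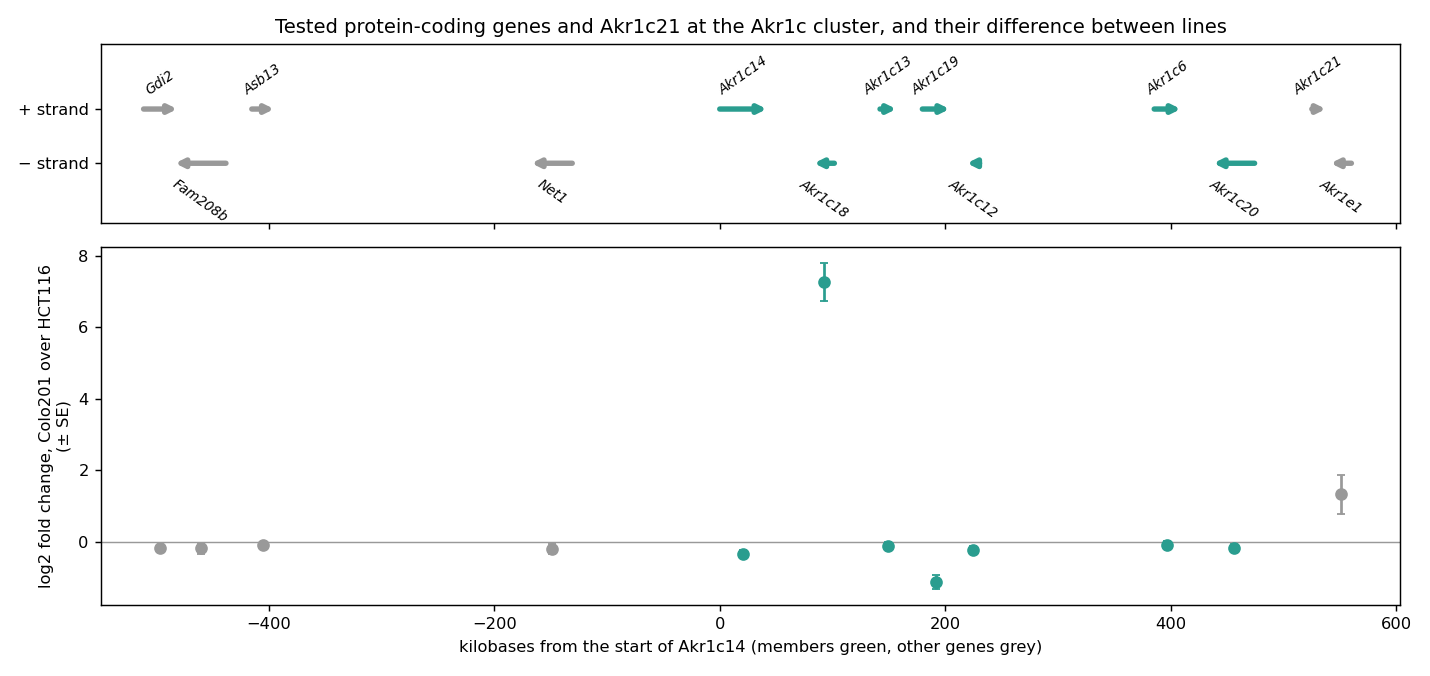
Top, tested protein-coding genes and Akr1c21 by distance in kilobases from the start of Akr1c14, with arrows for strand; bottom, log2 fold change between lines with its SE for each tested protein-coding gene. Akr1c18 stands at 7.27, Akr1c19 at -1.12 and Akr1e1 at 1.33, and the other genes shown lie between -0.33 and 0.

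The comparison of sex labels, which played no part in choosing the members, had 4 libraries on each side and line as a covariate. The log2 fold change of libraries labelled male over those labelled female was negative for 5 members: -0.47 (SE 0.11) for Akr1c6, -0.32 (SE 0.10) for Akr1c12, -0.40 (SE 0.11) for Akr1c13, -0.47 (SE 0.12) for Akr1c14 and -0.79 (SE 0.19) for Akr1c19. It was 1.91 (SE 0.46) for Akr1c18 and 0.28 (SE 0.13) for Akr1c20. The value of Akr1c18 rests mainly on the Colo201 libraries, 2 of each label, which held 5457 of its counts against 39 in the HCT116 libraries. Over 21 alternatives it ran from 0.88 to 2.36. The median over the members was -0.40, against 0.00 over all genes tested.

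None of these differences passed the threshold: by edgeR, 0 of 7 members had an adjusted p under 0.05, where 1.96% of all genes were called higher with the male label and 2.06% were called lower. The adjusted p was 0.0547 for Akr1c6, 0.0553 for Akr1c19, 0.0584 for Akr1c18, 0.0697 for Akr1c14, 0.0804 for Akr1c13, 0.127 for Akr1c12 and 0.322 for Akr1c20. At an unadjusted p under 0.05 there were 6 of 7, against 18.2% of all genes. DESeq2 called 5 members (Akr1c6, Akr1c13, Akr1c14, Akr1c18 and Akr1c19), where it called 8.97% of all genes, and limma voom 3 (Akr1c6, Akr1c18 and Akr1c19), where it called 4.7%. The sex labels did not overlap in CPM for 3 of 7 members (Akr1c6, Akr1c12 and Akr1c13, all lower in labelled male), and for 9.64% of all genes.

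The summed CPM of the 7 members was 1398 ± 112 in the libraries labelled male and 1880 ± 242 in those labelled female (SD, n = 4 each), with no overlap. Akr1c18 went the other way, with a ratio of labelled male to labelled female of 3.14 within Colo201 hosts; within HCT116 hosts no ratio is given, since every library but 1R was under the floor of 3 fragments. The ratio for Akr1c6 was 0.713 within Colo201 hosts and 0.729 within HCT116 hosts, and for Akr1c19 it was 0.743 and 0.453.

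Markers of endothelial and Kupffer cells moved with the sex label too. All 8 endothelial markers were higher with the male label at an unadjusted p under 0.05, 3 of them at an adjusted p under 0.05 (edgeR), with a median log2 fold change of 0.59. Of 8 Kupffer cell markers, 7 were higher at an unadjusted p and 1 at an adjusted p under 0.05, with a median of 0.69. Of all genes, 18.2% had an unadjusted p under 0.05 in either direction (edgeR). At an adjusted p under 0.05, 1.96% were higher with the male label. Summed, the endothelial markers had 279.1 to 320.9 CPM with the male label and 168.1 to 227.2 CPM with the female label, and the Kupffer cell markers 396.2 to 481.2 CPM and 170.9 to 335.1 CPM. The hepatocyte markers summed to 156900 to 198900 CPM and 128400 to 156300 CPM, also without overlap, but Alb was the largest part (76850 to 127100 CPM). Of these 8 markers, edgeR called 2 higher with the male label, Alb and Ahsg, and 0 lower. At an unadjusted p under 0.05, 1 was lower (Serpina1a, log2 fold change -0.34). The median of the list was 0.11. The part of these differences in those of the members was not tested.

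Whether the line contrast itself differed between sex labels was tested with an interaction term (labelled female minus labelled male). By edgeR, 0 of 7 members passed, where 0.0283% of all genes did, and 2 of 7 had an unadjusted p under 0.05, as did 4.1% of all genes. DESeq2, which called 0.332% of all genes, and limma voom, which called 0.0283%, also called 0 members. The differences of the log2 fold changes were -0.42 (SE 0.17) for Akr1c13, -0.71 (SE 0.29) for Akr1c19 and 1.81 (SE 1.27) for Akr1c18, and all 7 had an adjusted p of 1. The sign for Akr1c18 turned on the FPKM scales, to -1.31 with a pseudocount of 1 and -0.49 with 0.1, and without 1 library it ran from 0.028 to 5.53, so no direction is given for it.

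**Figure D4:**
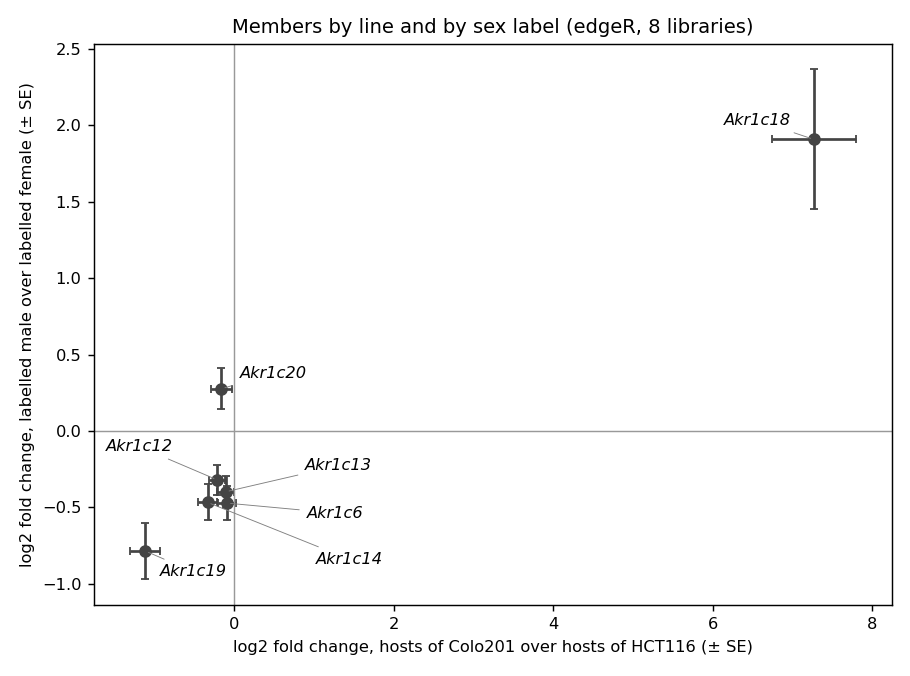
Log2 fold change between lines (horizontal) against log2 fold change between sex labels (vertical) for the 7 members, each with its SE from edgeR over 8 libraries. Akr1c18 lies apart at 7.27 and 1.91, Akr1c19 lies at -1.12 and -0.79, and the other 5 members lie close to 0 between lines.

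By edgeR, 2 of the 11 remaining aldo-keto reductases tested were higher in Colo201 hosts and 0 lower. Of all genes, 2.48% were higher and 2.3% lower. The median log2 fold change of the 11 genes was -0.06. DESeq2, which called 13.4% of all genes in either direction, called 1 of them lower. Akr1b3, the aldose reductase that turns glucose into sorbitol, lay at 12.5, 10.8, 12.9 and 11.7 CPM in Colo201 hosts and at 7.70, 7.33, 6.31 and 7.18 CPM in HCT116 hosts. Its lines did not overlap, and its log2 fold change was 0.75 (SE 0.11, adjusted p = 0.0145, edgeR); the call was lost without HCT116 1R or HCT116 3L and when L and R were summed. Akr7a5, an aldehyde reductase that acts on aflatoxin dialdehyde, was at 199 ± 33.9 against 149 ± 18.0 CPM (SD, n = 4 each; log2 fold change 0.41, SE 0.10, adjusted p = 0.0483, edgeR). The ranges of Akr7a5 overlapped, and its call was lost without any 1 of 7 of the 8 libraries. It was also lost in 5 other alternatives, with an adjusted p of up to 0.172 over all of them.

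Akr1d1, the 5-beta-reductase of bile acid and steroid hormone metabolism, was at 124 ± 27.7 against 185 ± 57.4 CPM (SD, n = 4 each), for which edgeR gave a log2 fold change of -0.56 with an adjusted p of 0.0661 (SE 0.14); DESeq2 called it lower, at an adjusted p of 0.00426. Akr1a1, the aldehyde reductase of vitamin C synthesis in mice, had a log2 fold change of -0.02 and Akr1b10 one of -0.48. Akr1b7 and Akr1b8 had -0.14 and -0.06, and the potassium channel beta subunits Kcnab1, Kcnab2 and Kcnab3 had -0.94, 0.17 and -0.33. The adjusted p of these 7 genes was 0.281 or more (edgeR).

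Among 20 tested hydroxysteroid dehydrogenases and steroid reductases, edgeR called 1 higher in Colo201 hosts and 0 lower (2 and 1 by DESeq2), counts near the shares of all genes given above; 4 were higher and 2 lower at an unadjusted p under 0.05, and the median log2 fold change was 0.05. The gene that rose was Hsd3b7, the 3-beta-hydroxysteroid dehydrogenase of bile acid synthesis, at 371 ± 65.5 against 210 ± 37.9 CPM (SD, n = 4 each; log2 fold change 0.84, SE 0.13, adjusted p = 0.0167, edgeR), without overlap; its call was lost without HCT116 1L, 1R or 3L, without the covariate and when L and R were summed. Among 9 tested steroid sulfotransferase and PAPS synthase genes, edgeR, DESeq2 and limma voom each called 0. By edgeR there were 0 at an unadjusted p under 0.05, and the median was 0.07. Of all genes, the 3 methods called 4.78%, 13.4% and 5.68%, and 21.7% had an unadjusted p under 0.05 by edgeR.

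Between sex labels, edgeR called 1.96% of all genes higher with the male label and 2.06% lower. Of the 20 tested hydroxysteroid dehydrogenases and steroid reductases, it called 1 higher and 5 lower. The higher one was Hsd3b1, which had at most 1.93 CPM in any library, so no fold is given. Of the lower ones, Hsd3b5 and Srd5a1, the steroid 5-alpha-reductase, had log2 fold changes of -3.92 and -2.32. Of the 9 tested genes of the sulfotransferase list, 5 were higher with the male label and 0 lower, and the 5 included Sult2a1, which sulfates hydroxysteroids.

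A list of carbonyl reductases, most of the short-chain family, also held Tbxas1, Ptgr1, Ptgr2 and Nqo2, which are not of that family. By edgeR, 2.48% of all genes were higher in Colo201 hosts and 2.3% lower. Of the 14 tested genes of the list, 1 was higher and 0 lower (edgeR, DESeq2 and limma voom), with a median of 0.04. It was Dhrs3, a retinaldehyde reductase, at 197 ± 27.2 against 123 ± 13.7 CPM (SD, n = 4 each; log2 fold change 0.68, SE 0.12, adjusted p = 0.0237, edgeR); the call was lost in 6 of the 8 fits that left out 1 library, without the covariate and when L and R were summed. Of 12 genes of prolactin, growth hormone and Nr4a signalling, which bear on Akr1c18 in the ovary, edgeR called 0 between lines, with a median of -0.15. By edgeR 2 were lower at an unadjusted p under 0.05, and DESeq2 called 1 lower. Of all genes, edgeR called 4.78% between lines and DESeq2 13.4%, and 21.7% had an unadjusted p under 0.05 by edgeR. Between sex labels, the prolactin receptor Prlr (log2 fold change 1.42, adjusted p = 0.000231, edgeR) and the feedback inhibitor Socs2 (0.91, adjusted p = 0.00641) were higher in the libraries labelled male.

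Of all genes, edgeR called 2.48% higher in Colo201 hosts and 2.3% lower. Of 15 tested targets of NRF2, the factor that induces antioxidant genes, 2 were higher and 1 was lower (edgeR), with a median of -0.06. The higher ones were Pgd, of the pentose phosphate pathway (log2 fold change 0.60, SE 0.08, adjusted p = 0.00826), and Srxn1, which repairs oxidised peroxiredoxins (0.75, SE 0.14, adjusted p = 0.0261). The lower one was Ugdh, which makes UDP-glucuronate (-0.60, SE 0.13, adjusted p = 0.0381). Of the 8 fits that left out 1 library, 6 lost the call of Srxn1 and 7 that of Ugdh, with an adjusted p of up to 0.146 and 0.515 over all alternatives; Pgd lost its call without the covariate and when L and R were summed.

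The genes whose pattern over the 8 libraries was most like that of Akr1c18, by Pearson r of log2 CPM among 12723 genes with a mean of at least 1 CPM, were Cand2 (0.99), Entpd6 (0.99) and N4bp3 (0.98). Cand2 lay at 2.05 to 2.88 CPM in Colo201 hosts and at 0.684 to 1.02 CPM in HCT116 hosts, without overlap. After subtracting the mean of each line, the most alike were Dennd1c, Zbp1 and Dusp5 (0.98 each). By Spearman rank correlation, Ift27, Miox and Agmat followed the order of Akr1c18 exactly (coefficient of 1). Genes tied at 1 were cut to 3 by gene identifier, and how many were tied was not counted. The order of Akr1c18 within HCT116 hosts rests on 5, 31, 0 and 3 estimated counts in 1L, 1R, 3L and 3R. For Akr1c6, the most abundant member, the leading genes were Rars (0.99), C9 (0.98) and Ankrd33b (0.98), and after subtracting line means Rars (0.998), Ssb (0.99) and Qprt (0.99). These values are descriptions over libraries that share line, sex label and depth.

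In whole liver, fewer cells of a type and less RNA per cell cannot be told apart. The 8 hepatocyte markers summed to 153700 to 198900 CPM in Colo201 hosts and 128400 to 167500 CPM in HCT116 hosts. By edgeR, 3 of them (Apoa1, Trf and Ahsg) were higher in Colo201 hosts, where 2.48% of all genes were. Those 3 calls were lost in 3, 6 and 5 of the 8 fits without 1 library. At an unadjusted p under 0.05 (edgeR), 4 of the 8 were higher and 1 lower (Fgb, log2 fold change -0.27). Of all genes, 21.7% had such a p in either direction. Kupffer cell markers summed to 170.9 to 481.2 CPM against 281.1 to 430.9 CPM, and endothelial markers to 168.1 to 302.8 CPM against 203.6 to 320.9 CPM. The lowest sum of both was that of Colo201 4R. Stellate cell markers summed to 249.2 to 256.2 CPM against 180.5 to 261.9 CPM, with Reln called higher (log2 fold change 0.89, lost in 2 of the 8 fits). At an unadjusted p under 0.05 (edgeR), 3 of 8 stellate markers were higher and 1 lower (Dcn, -0.38). Cholangiocyte markers summed to 35.3 to 77.0 CPM against 30.0 to 40.0 CPM, with Krt23 higher (log2 fold change 4.13, adjusted p = 0.0169, edgeR; lost in 2 of the 8 fits). Their part in the differences of the members was not tested.

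Of the markers of other organs, most were at or near 0, with Cyp17a1, Cela1 and Nphs1 the ones that were not low. For the adrenal cortex, Cyp11b2, Nr5a1 and Mc2r were at 0 in all 8 libraries, Cyp11b1 reached at most 0.0677 CPM, Star lay at 1.75 to 3.69 CPM and Akr1b7 at 0.0648 to 5.51 CPM, and the 8 markers summed to 3.08 to 8.11 CPM in Colo201 hosts and 3.34 to 8.60 CPM in HCT116 hosts. For ovary and testis, Cyp19a1, Lhcgr and Fshr were at 0 in all libraries. The sum of that list, 2.57 to 46.8 CPM against 1.31 to 5.47 CPM, was nearly all Cyp17a1, the 17-alpha-hydroxylase of steroid synthesis.

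The Colo201 libraries 2L, 2R, 4L and 4R had 46.6, 20.6, 2.41 and 4.47 CPM of Cyp17a1, and the HCT116 libraries 1L, 1R, 3L and 3R had 5.09, 3.60, 1.25 and 1.39 CPM. It was highest in the 2 Colo201 libraries labelled male, where Akr1c18 was also highest. Between sex labels, edgeR called Cyp17a1 higher with the male label (log2 fold change 2.55, adjusted p = 0.0136), where 1.96% of all genes were. The lines overlapped. Between lines, the edgeR log2 fold change was 2.22 (SE 0.42), at an adjusted p of 0.0272. That call was lost in 4 of the 8 fits without 1 library and in 3 other alternatives, with an adjusted p of up to 0.17. For kidney, Slc12a1, Slc22a6, Kap and Aqp2 were at 0, and the 10 markers summed to 8.04 to 14.6 CPM against 8.74 to 14.5 CPM, nearly all Nphs1. For the pancreas, 4 of 8 markers were at 0, and the sum of 24.9 to 51.2 CPM against 9.20 to 28.2 CPM was nearly all Cela1 (log2 fold change 1.23, adjusted p = 0.0158, edgeR; lost in 2 of the 8 fits without 1 library).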

How the data were processed

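Polyadenylated RNA of NSG mouse liver was sequenced in 8 stranded libraries, per the labels' protocols. The authors' deposited tables hold whole-number estimated counts and FPKM per gene. The build GRCm38 (mm10) and the tools HISAT2 and StringTie are named per the submitters' processing notes; tool roles and versions, annotation, read length and strand setting were not given in the sources. Reads of paralogs, overlapping or antisense genes may therefore be split or joined. Multiples of 4 made up 43.9 to 45.0% of each library's low deposited count values (1 to 16), against 25% if all were equally frequent, so a fragment was taken as about 4 counts in setting floors. No 2 libraries agreed within sampling noise. Symbols came from GENCODE vM21 (55141 of 55401 identifiers); the 260 without one held 0.0216 to 0.0343% of counts.

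The counts were fitted with edgeR 4.0.16 (R 4.3.3; TMM scaling, filterByExpr, quasi-likelihood test, two-sided, Benjamini-Hochberg over 17669 genes) on line plus sex label, and, for the interaction, on a separate mean per combination of line and label. CPM are TMM-scaled. Deposited FPKM served for levels between genes, with gene lengths that the sources do not give. DESeq2 1.42.0 and limma 3.58.1 were alternatives. The edgeR fit was tested on simulated data. Members and gene lists were chosen with earlier results of these data known. Named were all members, all other aldo-keto reductases, up to 4 called genes of each other list by smallest p, all tested genes within 500 kb, the 3 genes most like Akr1c18 and Akr1c6 by each measure, and Cyp7a1; genes named from the comparison of sex labels, the marker lists' members at 0 or near it, and the genes like Akr1c18 by rank were chosen after their values were seen.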

Additional observations from a re-analysis of the deposited data

Results flagged for a closer look

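Within the 4 HCT116 host libraries, the Akr1c18 level of 0.479 CPM in 1R stood apart from the other three, which lay between 0 and 0.0809 CPM. Its gap to the nearest of them, divided by the range of the group, was above Dixon's 95% critical value for 4 samples. Of 16 groups of libraries checked this way (8 measures in each line), this was 1 flag, and chance flags about 1 group in 20. The library held 31 of the 39 HCT116 counts of Akr1c18; without it the log2 fold change between lines was 8.64 in place of 7.27.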

How the results depend on the processing

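The genes called between lines numbered 845, and 1993 by DESeq2, 155 without the covariate, 92 at a threshold of 0.01, 175 to 550 without 1 library and 0 when L and R of each number were summed (3518 at an unadjusted p under 0.05, edgeR). Between sex labels they numbered 710, and 1585 by DESeq2, 340 without the covariate, 126 summed, 225 at 0.01 and 327 to 630 without 1 library. The interaction gave 5 genes, and 53 by DESeq2, 2 with limma on log2(FPKM + 1), 2 on log2(FPKM + 0.1), 3 at 0.01 and 0 to 15 without 1 library, the 0 being without HCT116 1R (657 at an unadjusted p under 0.05, edgeR); it could not be fitted without the covariate or on summed libraries. The members called between sex labels numbered 0, and 1 with library totals only (Akr1c6), 3 with at least 1 CPM in 4 libraries, 5 by DESeq2, 3 by limma voom, 3 with counts divided by 4 and 0 to 1 without 1 library.

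The log2 fold change of Akr1c18 between lines was 3.76 on log2(FPKM + 1) and 6.88 to 8.64 without 1 library. Those of the other 6 members moved by less than 1 SD in all 20 alternatives (-1.28 to -0.96 for Akr1c19), as did the log2 ratio of the cluster sum in its 10 (-0.29 to -0.07). The interaction of Akr1c18 turned to -1.31 on log2(FPKM + 1) and -0.49 on log2(FPKM + 0.1) and ran from 0.028 to 5.53 without 1 library, where that of Akr1c6 ran from -0.15 to 0.24; the cause was not tested. Without 1 library the line log2 fold change ran from -0.051 to 0.013 for Akr1a1, -1.08 to 0.24 for Akr1b7, -0.27 to 0.069 for Akr1b8 and -0.40 to 0.41 for Kcnab2. Cand2, Entpd6 and N4bp3 had a Spearman rank correlation of 0.976 with Akr1c18 and were not among the 3 highest by rank. Depth limits Akr1c18 in HCT116 hosts, where 3 fragments are 0.182 to 0.2 CPM. No paired analysis was possible because the lines share no replicate numbers.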
